A study of Mus musculus with 18 samples.

Results

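The step from 3 to 8 hours post injury (HPI) was examined in eDRG spot cultures, which are cultures of dorsal root ganglion (DRG) neurons taken from CD-1 mouse embryos at e13.5 and treated with the mitotic inhibitor 5-fluorodeoxyuridine (FDU). The comparison used the 3 libraries labelled 3HPI and the 3 labelled 8HPI, 6 of the 18 libraries of the series, and asked which genes had changed between these collections. All 6 cultures had their axons cut with a blade, and by their labels they differed in the hours until collection. No uninjured culture is labelled as collected alongside 3 HPI or 8 HPI. Hours since injury therefore cannot be told apart from hours in culture or time of day. The other 12 libraries, 3 each of uninjured control cultures at DIV7 (day 7 in vitro) and of cultures at 1, 16 and 24 HPI, entered the fit to estimate the spread and give levels at other times. Every gene over 1 CPM, the read count scaled to the size of its library, in at least 3 of the 18 libraries was kept, 13771 of 47643 genes. The 3 replicate numbers were treated as batches. The labels do not say that replicates came from separate cultures, so the p-values measure only the spread between these libraries, which may be technical. FDU removes dividing cells, so the model is made of neurons with few of the glia and immune cells that surround them in the animal. In whole cultures, fewer cells of a type and less RNA per cell cannot be told apart.

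A cut axon signals back to its cell body, in part through kinases such as DLK and JNK, which phosphorylate Jun. Jun and Atf3 are bZIP transcription factors that bind AP-1 and CRE sites and switch on in axotomised sensory neurons, where they act in the programme of axon regrowth. The same kinases feed the integrated stress response, in which reduced translation initiation favours Atf4 and its targets, and can lead to the induction of BH3-only genes of apoptosis.

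The step from 3 to 8 HPI was made up largely of higher expression. With an adjusted p under 0.05 in edgeR's quasi-likelihood test and a change over 2-fold, 24 genes were called higher at 8 HPI (0.174% of those tested) and 2 were called lower (0.0145%). Among the 24 were the injury transcription factors Atf3, Jun, Egr1 and Creb5, the MAP kinase phosphatases Dusp1 and Dusp16, and the BH3-only gene Bcl2l11. With the adjusted p alone, 240 genes rose (1.74%) and 77 fell (0.559%). Every one of the 240 and of the 77 moved the same way in 3 of 3 batches, as did 4812 of all 13771 tested genes, and since the test used these batches this is no separate support. The median size of the change was 1.34-fold for the genes that rose and 1.31-fold for those that fell, and the median log2 fold change of all tested genes was -0.000519. The 3 libraries at 8 HPI lay above all 3 at 3 HPI for 747 genes (5.42%) and below them for 611 (4.44%), among them 186 of the 240 and 55 of the 77. Without the replicate block, 11 and 0 genes were called and 37 rose and 7 fell. Under upper-quartile scaling 200 genes rose and 116 fell. Leaving out 8HPI replicate 1, 3HPI replicate 1 or 3HPI replicate 3 brought the genes that rose to 134, 152 and 153, and leaving out 8HPI replicate 1, 3HPI replicate 1 or 8HPI replicate 2 brought the genes that fell to 32, 35 and 51.

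**Figure D1:**
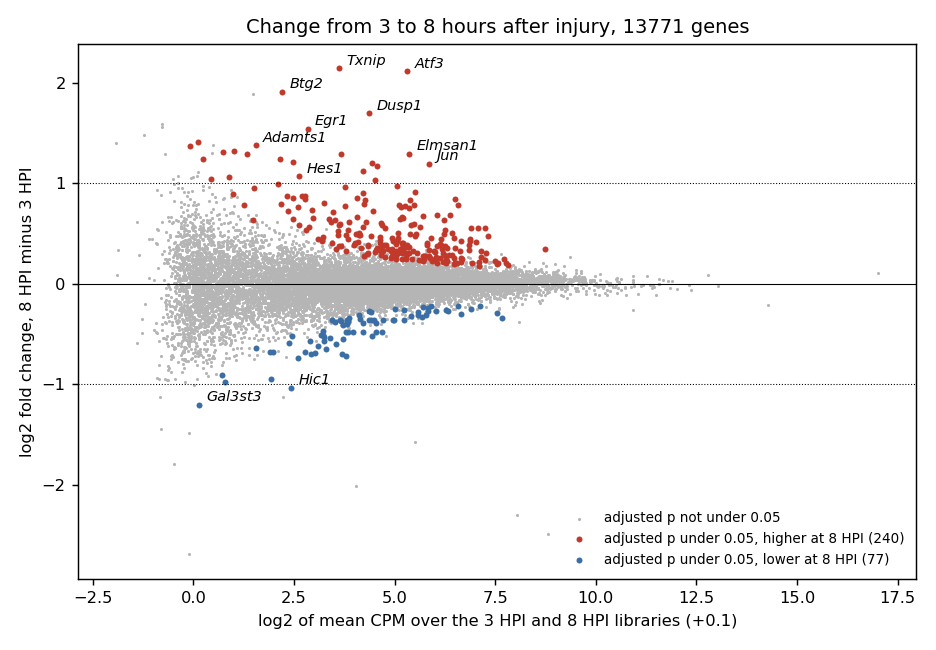
Log2 fold change from 3 to 8 HPI (vertical axis) against the log2 of mean CPM over the 6 libraries (horizontal axis), 1 point per tested gene. The 240 genes that rose (red) reach a log2 fold change of 2.14 at Txnip, and the 77 that fell (blue) reach -1.21 at Gal3st3, with dotted lines at a 2-fold change.

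Txnip, which encodes a thioredoxin-binding protein that restrains glucose uptake, had the largest change among the 24. Its normalised level was 4.26, 3.83 and 5.19 CPM in the 3 libraries at 3 HPI and 24.6, 23.0 and 12.3 CPM at 8 HPI. The groups did not overlap, and batch 3 had the smallest difference (log2 fold change 2.14, SE 0.24, edgeR quasi-likelihood adjusted p 1.1e-05). The mean of Txnip was 6.83 CPM in control and 4.43 CPM at 3 HPI, a difference that did not pass (edgeR adjusted p 0.273). At 8 HPI against control its log2 fold change was 1.49 (edgeR adjusted p 0.000376). Txnip lies on the plus strand of chromosome 3 of GRCm38, from 96557957 to 96561883. Atf3 stood at 11.7, 13.7 and 20.3 CPM at 3 HPI and at 65.7, 63.0 and 64.3 CPM at 8 HPI. The libraries at 8 HPI were close to each other, and each lay above its partner of the same batch (log2 fold change 2.12, SE 0.21, edgeR adjusted p 2.85e-06). Atf3 lies on the minus strand of chromosome 1, from 191170296 to 191218039. Btg2, an antiproliferative gene of the p53 and immediate early response, went from 1.13, 1.96 and 2.65 CPM to 7.32, 7.42 and 6.61 CPM (log2 fold change 1.91, SE 0.20, edgeR adjusted p 3.8e-06).

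Dusp1, a phosphatase that inactivates JNK, p38 and ERK, had the smallest p of all genes. It was at 8.79, 9.24 and 11.1 CPM at 3 HPI and at 31.4, 34.0 and 29.0 CPM at 8 HPI (log2 fold change 1.70, SE 0.11, edgeR adjusted p 1.74e-08). On the opposite strand it overlaps Ergic1, whose own log2 fold change was 0.06. Jun was at 46.6, 23.7 and 36.2 CPM at 3 HPI and at 98.8, 71.5 and 70.4 CPM at 8 HPI (log2 fold change 1.19, SE 0.09, edgeR adjusted p 1.3e-07). In each batch the 8 HPI library lay above its partner, and in Jun the batches differed more at 3 HPI than in Dusp1. Egr1, a zinc finger factor of the immediate early class, was at 4.04, 2.70 and 4.0 CPM at 3 HPI and at 12.6, 8.69 and 10.3 CPM at 8 HPI (log2 fold change 1.55, SE 0.19, edgeR adjusted p 3.3e-05).

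Further genes called higher were the matrix protease Adamts1, the ubiquitin ligases March3 and Trim17, the actin-associated Filip1l, the helicase Helz2, the corepressor subunit Elmsan1 and the RNA- and DNA-binding Arid5a. Their log2 fold changes ran from 1.29 for Arid5a to 1.38 for Adamts1. Elmsan1 was at 20.5, 21.3 and 30.4 CPM at 3 HPI and at 55.9, 54.6 and 64.4 CPM at 8 HPI, with no overlap. March3 rested on 6 to 13 counts at 3 HPI and 14 to 21 counts at 8 HPI. Without 8HPI replicate 1 the adjusted p of Adamts1 rose above the threshold, and March3 lost its call without 3HPI replicate 3, 8HPI replicate 1 or 8HPI replicate 2. With counts thinned to the shallowest library, Trim17, Filip1l and March3 no longer passed. Adamts1, March3, Helz2 and Arid5a did not pass in the fit with no replicate block. Calcrl, the receptor of the neuropeptide CGRP, went from 10.4, 12.8 and 16.2 CPM to 32.8, 26.0 and 31.1 CPM, and the CRE-binding factor Creb5 from 13.0, 10.2 and 11.5 CPM to 26.3, 24.1 and 25.2 CPM. Both had libraries at 8 HPI that lay above all libraries at 3 HPI.

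**Figure D2:**
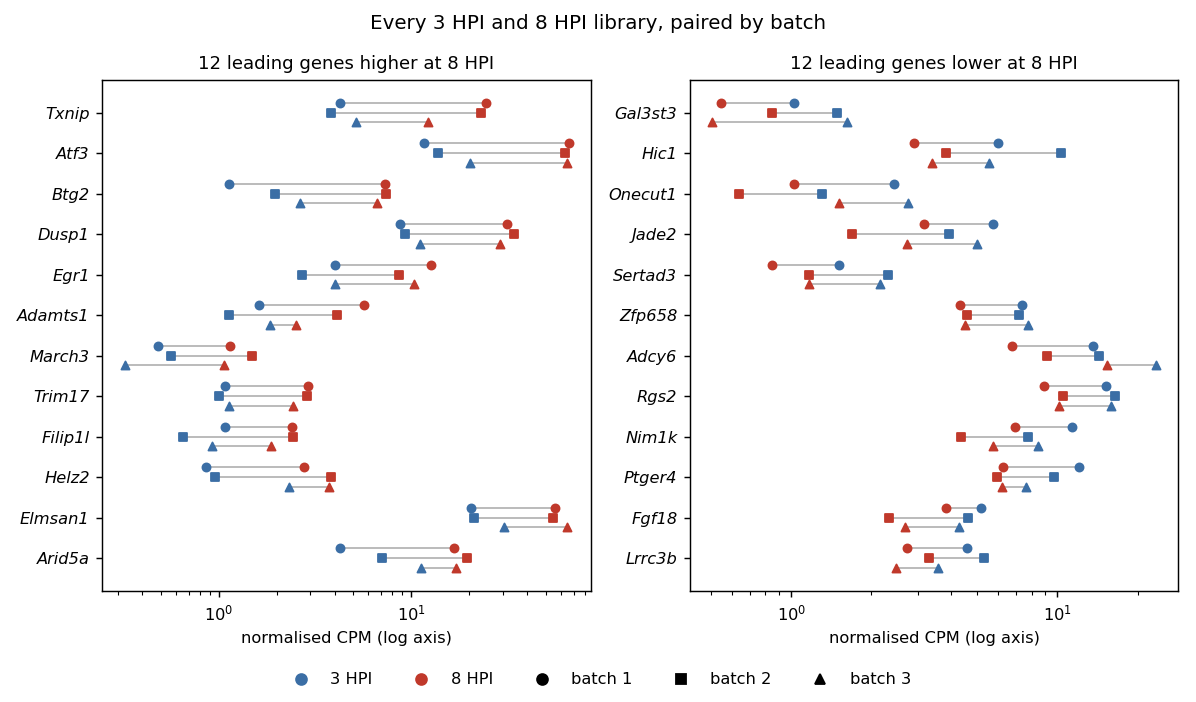
Normalised CPM on a log axis of the 12 protein-coding genes with the largest increase (left) and decrease (right), with 1 symbol per library, blue for 3 HPI and red for 8 HPI, joined within a batch. On the left each red symbol lies to the right of its blue partner, as for Atf3 at 65.7, 63.0 and 64.3 CPM, and on the right each lies to the left of it. The rule that chose these genes required the same direction in all 3 batches.

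Promoter sequence is shown for genes that moved together in these groups, chosen after their values were seen. RefSeq windows on GRCm38.p6 were found for 10145 of the tested genes, and the 250 bases upstream of each start were searched on both strands for an ATF-C/EBP composite element (TGATGNAA, the site of Atf4 and C/EBP dimers), a CRE (TGACGTCA), an AP-1 site (TGANTCA), an E-box (CACGTG), an ER stress element and a CArG box, where matches may share bases. The stretches below run 5′ to 3′ on the strand of the gene with the match in capitals. The first 2 hold an ATF-C/EBP element, the next 3 a CRE, Hspa5 an ER stress element and Arrdc4 an E-box. They lie at chr1:191183411-191183468 for Atf3, chr2:119351024-119351081 for Chac1, chr1:134079289-134079346 for Btg2, chr17:26508583-26508640 for Dusp1, chr7:45526269-45526305 for Ppp1r15a, chr2:34772000-34772068 for Hspa5 and chr7:68749401-68749456 for Arrdc4, with Chac1 and Hspa5 on the plus strand and the others on the minus strand.
Atf3: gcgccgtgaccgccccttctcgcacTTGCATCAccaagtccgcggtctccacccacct
Chac1: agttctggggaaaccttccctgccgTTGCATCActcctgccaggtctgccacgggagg
Btg2: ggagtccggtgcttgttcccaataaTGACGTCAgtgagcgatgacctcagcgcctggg
Dusp1: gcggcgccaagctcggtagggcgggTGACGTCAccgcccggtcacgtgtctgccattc
Ppp1r15a: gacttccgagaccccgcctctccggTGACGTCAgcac
Hspa5: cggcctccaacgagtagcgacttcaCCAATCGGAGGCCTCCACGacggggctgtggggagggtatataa
Arrdc4: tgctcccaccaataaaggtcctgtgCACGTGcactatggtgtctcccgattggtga

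Windows were found for 188 of the 240 genes that rose and for 63 of the 77 that fell. A CRE was in the windows of 8.51% of the genes that rose, among them Btg2, Dusp1, Dusp8, Creb5, Maff and Plk2, against 3.19% of all genes with a window and 0 of the 63 that fell. An ATF-C/EBP element was found in 7.45% of the genes that rose, in 4.76% of those that fell and in 2.43% of all, and an AP-1 site in 7.98%, 0% and 5.06%. The E-box shares were 11.2%, 7.94% and 9.99%. A CArG box was in 2.66%, 1.59% and 1.36%, and an ER stress element in 0.532%, 0% and 0.148%. These are descriptions of letters near 1 or more annotated starts, with no test, and they do not show that a factor was bound.

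The immediate early genes, which respond to signals without new protein synthesis, had the largest share that rose among the lists used here. Of 23 tested, 10 rose (43.5%, against 1.74% of all tested genes) and 0 fell, and their median log2 fold change was 0.25. Besides Atf3, Jun, Btg2 and Egr1 these were Ier3 (log2 fold change 1.17), Nfil3 (1.03), the AP-1 subunit Fosl2 (0.90), Ier2 (0.80), Maff (0.78) and Ppp1r15a (0.78). Ier3 went from 14.6, 11.5 and 17.6 CPM to 39.8, 23.5 and 35.2 CPM, with no overlap of the groups. Other AP-1 subunits did not pass, with log2 fold changes of 0.04 for Fos, -0.81 for Fosb and 0.11 for Junb (edgeR adjusted p 0.961, 0.254 and 0.869). Without the replicate block, 3 of the 23 rose. For this list and those below, the shares of all tested genes were 1.74% that rose and 0.559% that fell. The lists were chosen with earlier results of these data known, and they share members such as Atf3 and Jun. Their shares are therefore descriptions and not separate findings.

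Of 18 feedback inhibitors of MAP kinase signalling, 5 rose (27.8%) and 1 fell. The JNK and p38 phosphatases Dusp1, Dusp8 and Dusp16 rose together with Dusp14 and with Errfi1, an inhibitor of the EGF receptor. Dusp8 was at 65.3, 61.6 and 64.9 CPM at 3 HPI and at 99.1, 104 and 106 CPM at 8 HPI (log2 fold change 0.68, SE 0.06, edgeR adjusted p 1.09e-06), and Dusp16 at 3.67, 2.61 and 3.62 CPM and then 6.77, 7.21 and 8.94 CPM. The ERK phosphatase Dusp7 fell from 22.6, 24.4 and 24.4 CPM to 17.1, 19.3 and 19.1 CPM (log2 fold change -0.36, edgeR adjusted p 0.00454), and it no longer passed without 8HPI replicate 1. Among the remaining members, the ERK phosphatase Dusp6 had a log2 fold change of -0.39 (edgeR adjusted p 0.242) and Dusp4 one of 0.48 (adjusted p 0.257). Of the 19 tested kinases and partners of the DLK and JNK route, 1 rose, Jun itself, and Map3k12, which encodes DLK, had a log2 fold change of 0.03 (adjusted p 0.869).

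Part of the integrated stress response rose. Of 31 tested genes, 8 rose (25.8%) and 0 fell, with a median log2 fold change of 0.16. In the fit without the replicate block, 2 of the 31 rose. The regulators Atf3, Ddit3, which encodes the transcription factor CHOP, and Cebpg rose, as did Ppp1r15a, the phosphatase subunit that restores translation, Sesn2, an inhibitor of mTORC1, and Chac1, which degrades glutathione. Ddit3 was at 44.6, 64.1 and 86.9 CPM at 3 HPI and at 91.3, 132 and 124 CPM at 8 HPI (log2 fold change 0.85, SE 0.11, edgeR adjusted p 5.68e-05). Sesn2 went from 30.6, 40.8 and 50.8 CPM to 54, 64.4 and 73.5 CPM, and Chac1 from 82.4, 103 and 111 CPM to 117, 145 and 141 CPM. In both genes, as in Ddit3, replicate 1 was the lowest library at each time. Stc2 and Aldh18a1 also rose, with log2 fold changes of 0.50 and 0.20. Members that did not pass included Cebpb, Gdf15, Ddit4 and Trib3, with log2 fold changes of 0.55, 0.47, 0.36 and 0.30 (edgeR adjusted p 0.0784, 0.388, 0.08 and 0.395), and Atf4 itself, with 0.17 (0.144). The amino acid synthesis genes of the same list gave log2 fold changes of 0.04 for Asns, 0.03 for Psat1 and -0.02 for Phgdh, and 0 of the 20 tested cytosolic aminoacyl-tRNA synthetases, which Atf4 also controls, passed in either direction. At an unadjusted p under 0.05, 4 of the 20 were higher and 1 lower, and 0 passed the DESeq2 Wald test. Their log2 fold changes ran from -0.15 for Farsa to 0.11 for Iars.

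Of 22 tested genes of the unfolded protein response of the endoplasmic reticulum, 5 rose (22.7%) and 0 fell. They were Herpud1, a component of ER-associated degradation, the chaperone Hspa5, its cochaperone Dnajb9, and the transcription factors Xbp1 and Atf6. Herpud1 went from 87.7, 93.0 and 109 CPM to 145, 140 and 138 CPM (log2 fold change 0.55, SE 0.07, edgeR adjusted p 2.63e-05). Hspa5 went from 349, 403 and 379 CPM to 482, 498 and 455 CPM (log2 fold change 0.34, SE 0.06, edgeR adjusted p 0.000994). Eif2ak3, which encodes the ER kinase PERK, stood outside the rule for named genes and rose from 53.9, 49.1 and 48.6 CPM to 89.8, 81.7 and 72.1 CPM (log2 fold change 0.68, edgeR adjusted p 9.72e-06). Leaving out 3HPI replicate 1, 3HPI replicate 3, 8HPI replicate 1 or 8HPI replicate 3 left 3 of the 5, and without the replicate block 0 of the 22 rose. Of 20 heat shock genes 0 passed in either direction, with 1 higher and 4 lower at an unadjusted p under 0.05 and 0 past the DESeq2 Wald test, and with Hspb8 at a log2 fold change of 0.21 (edgeR adjusted p 0.145) and Dnajb1 at -0.17 (0.258).

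**Figure D3:**
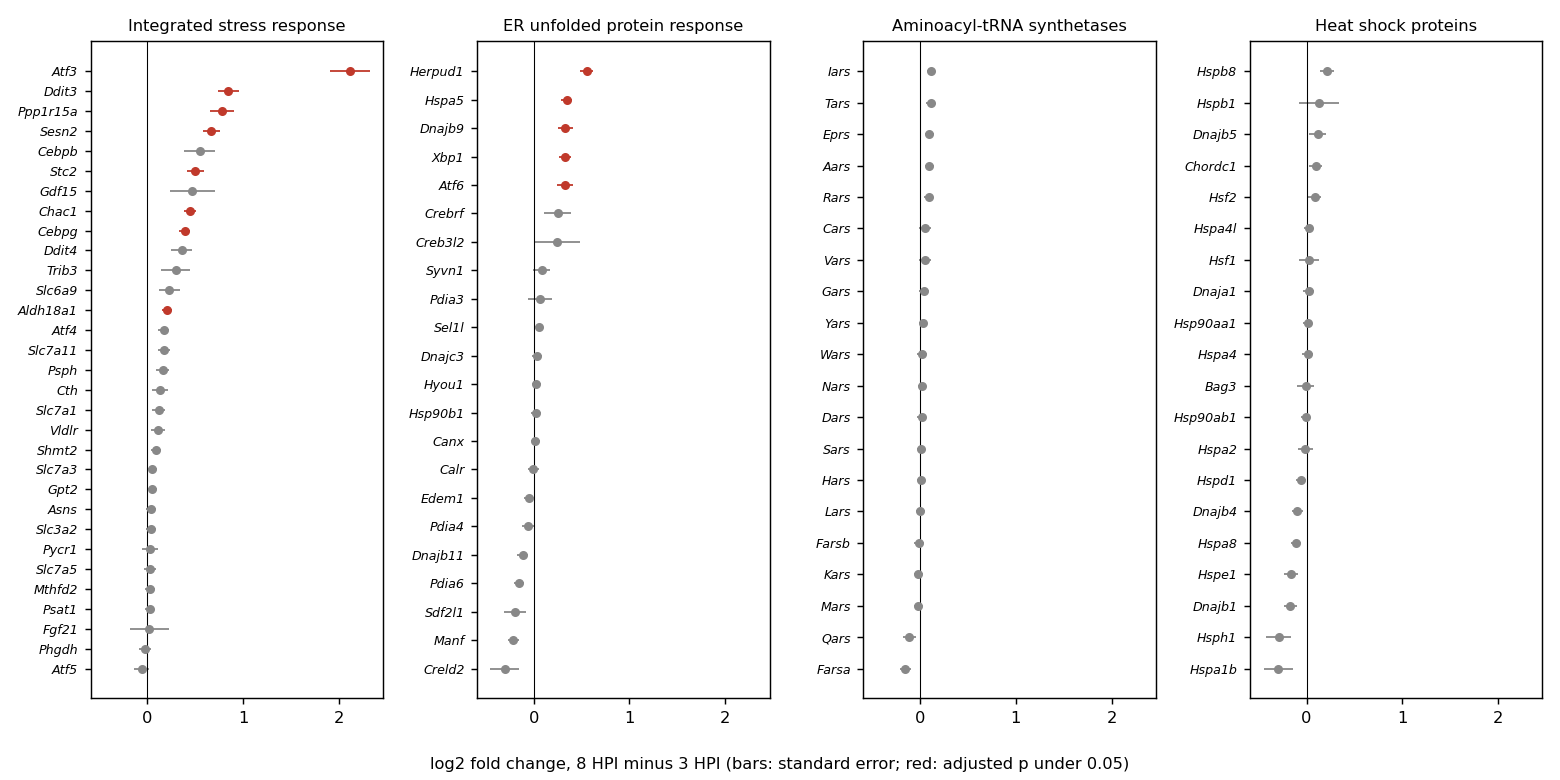
Log2 fold change from 3 to 8 HPI (horizontal axis, bars give the standard error) for each tested member of 4 lists, with members past the adjusted p threshold in red. The 8 red members of the integrated stress response run from 0.20 for Aldh18a1 to 2.12 for Atf3, and all members of the lists of aminoacyl-tRNA synthetases and heat shock proteins are grey.

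Of 27 tested p53 targets, 8 rose (29.6%) and 0 fell, with a median log2 fold change of 0.14. Besides Btg2 and Sesn2 they were the BH3-only gene Bbc3, the growth arrest gene Gadd45a, the p53 ligase Mdm2, Trp53inp1 and the polo-like kinases Plk2 and Plk3. In the fit without the replicate block, 2 of the 27 rose. Bbc3 was at 26.5, 30.3 and 39.0 CPM at 3 HPI and at 60.4, 55.2 and 62.4 CPM at 8 HPI (log2 fold change 0.91, SE 0.10, edgeR adjusted p 1.29e-05), and Gadd45a at 19.8, 33.9 and 37.4 CPM and then at 43.0, 56.2 and 59.3 CPM. The cell cycle inhibitor Cdkn1a had a log2 fold change of -0.20 (edgeR adjusted p 0.495) and Bax one of -0.07 (0.721). Several of these genes have other regulators as well, and Btg2 and Sesn2 also stand in other lists used here.

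Of 16 tested BCL2 family genes, 2 rose and 0 fell. Both, Bbc3 and Bcl2l11, which encodes BIM, are BH3-only members that start apoptosis by binding BCL2 and its relatives. Bcl2l11 was at 2.59, 2.18 and 3.03 CPM at 3 HPI and at 7.38, 4.98 and 5.96 CPM at 8 HPI (log2 fold change 1.24, SE 0.20, edgeR adjusted p 0.000615). The protective members Bcl2, Mcl1 and Bcl2l1 had log2 fold changes of 0.28, 0.12 and 0.02 and did not pass (edgeR adjusted p 0.237, 0.331 and 0.901). With all libraries thinned to the shallowest, Bcl2l11 no longer passed.

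Of 42 tested regeneration-associated genes, 7 rose (16.7%) and 0 fell. These were Jun, Atf3, Gadd45a, the transcription factors Sox11 and Smad1, the membrane protein Flrt3 and the stathmin Stmn4. When the replicate block was left out, 2 of the 42 rose. Sox11 went from 114, 122 and 131 CPM to 203, 155 and 180 CPM (log2 fold change 0.56, SE 0.07, edgeR adjusted p 7.54e-05), and Smad1 from 80.3, 77.2 and 79.7 CPM to 109, 98.7 and 96.7 CPM. The growth cone genes Gap43 and Basp1 had log2 fold changes of -0.06 and 0.12 (edgeR adjusted p 0.691 and 0.286). Stat3 had one of 0.13, and 0 of 19 genes of the gp130, STAT3 and NF-kB response passed, with 2 higher and 1 lower at an unadjusted p under 0.05 and 0 by the DESeq2 Wald test. Of the transcription factors that the study lists as higher after injury, 26 were tested and 10 rose (38.5%), 6 of them called. With no replicate block, 4 of the 26 rose. That list was drawn up on these same libraries, so its count is not independent evidence of direction.

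Circadian clock genes and antioxidant genes were among the other lists with a share that rose. Of 17 clock genes 4 rose (23.5%), the repressors Per1, Nfil3, Bhlhe40 and Ciart, and 0 fell. With no replicate block, 1 of the 17 rose. Per1 was at 10.9, 12 and 18.3 CPM at 3 HPI and at 19.0, 24.3 and 29.5 CPM at 8 HPI (log2 fold change 0.83, edgeR adjusted p 7.23e-06), whereas Dbp and Nr1d1 had log2 fold changes of -0.01 and 0.14 and did not pass. Of 24 Nrf2 genes, 2 rose, Nfe2l2, which encodes Nrf2, and the haem oxygenase Hmox1, which went from 17.6, 22.6 and 27.1 CPM to 37.4, 42.2 and 51.4 CPM (log2 fold change 0.98, edgeR adjusted p 4.6e-06). Nfe2l2 no longer passed when any 1 of the 6 libraries except 3HPI replicate 3 was left out, which left 1 gene of the list. Of 34 matrix genes 2 rose, Adamts1 and Plat, which encodes tissue plasminogen activator and went from 31.0, 22.5 and 22.5 CPM to 54.2, 41.0 and 36.0 CPM, and 1 of them passed without 8HPI replicate 1. Of 13 Notch genes, 2 had log2 fold changes above 0, and the median was -0.175. Hes1 alone passed and rose (log2 fold change 1.07, edgeR adjusted p 0.023), from 4.42, 3.62 and 3.57 CPM to 11.8, 5.72 and 7.37 CPM. It lost that call without 3HPI replicate 1, 8HPI replicate 2 or 8HPI replicate 3. The same held for the DESeq2 Wald test and for the fit with no replicate block.

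Lists of neuronal genes differed in the share that passed. Of 27 tested transcription factors of sensory neuron identity, 4 rose (14.8%, against 1.74% of all tested genes), among them Sox11, Sox4 and Tlx3, and 2 passed without 3HPI replicate 1 or without 8HPI replicate 1. Of 158 ion channel genes, 2 rose (1.27%), the pacemaker channel Hcn4 and Cacng3, and 2 fell, among them the potassium channel Kcna2, and the shares are near those of all genes. Kcna2 was at 95.3, 81.1 and 85.4 CPM at 3 HPI and at 75.0, 71.2 and 71.4 CPM at 8 HPI (log2 fold change -0.27, edgeR adjusted p 0.00568). The 2 that rose both no longer passed without 3HPI replicate 3, 8HPI replicate 1 or 8HPI replicate 2. Kcna2 no longer passed without 3HPI replicate 1 or 8HPI replicate 1. Of 51 axon guidance genes, Sema6a rose and 2 receptors or ligands fell, Plxnb2 and Efna3. Plxnb2, a semaphorin receptor, went from 24.0, 23.8 and 28.4 CPM to 14.9, 16.2 and 22.4 CPM (log2 fold change -0.52, edgeR adjusted p 0.0014). Of 19 neuropeptide genes Calcb rose (log2 fold change 0.35, edgeR adjusted p 0.0483), and of 31 tubulins, stathmins and neurofilaments Stmn4 rose (0.39, adjusted p 0.0498). Of 18 tested cytokines and growth factors, Areg rose and Fgf18 fell, and Fgf18 no longer passed when any 1 of the 6 libraries was left out. Calcb no longer passed when any 1 library but 3HPI replicate 1 was left out, and Sema6a when any 1 but 8HPI replicate 3 was. Stmn4 no longer passed without replicate 1 or 2 of either time, and Areg without 3HPI replicate 1 or 8HPI replicate 1. Of Plxnb2 and Efna3, 1 passed without 3HPI replicate 1, 8HPI replicate 1 or 8HPI replicate 2.

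No member passed edgeR's test in either direction among 33 synaptic vesicle genes, 12 neurotrophin receptors, 30 cholesterol synthesis genes, 32 genes of glycolysis and hypoxia, 13 mitochondrially encoded genes, 37 histones, 62 protocadherins or 23 cell division genes. At an unadjusted p under 0.05 these lists held, in that order, 2, 1, 5, 4, 0, 3, 0 and 2 members that were higher and 0, 0, 0, 2, 0, 4, 0 and 0 that were lower, and the DESeq2 Wald test passed 1 of them, the oxidoreductin Ero1l. Of 82 nuclear genes of the respiratory chain 0 passed, with a median log2 fold change of -0.097, and 7 of the 82 were above 0, while 19 were lower and 0 higher at an unadjusted p under 0.05. Of 79 cytosolic ribosomal protein genes 0 passed, with a median of -0.077, and 13 of the 79 were above 0, with 18 lower and 0 higher at an unadjusted p under 0.05. The DESeq2 Wald test passed Rpl38 and 0 of the respiratory chain genes. Examples were Uqcrh (log2 fold change -0.24, edgeR adjusted p 0.107) and Rpl38 (-0.25, adjusted p 0.0661). Of 334 C2H2 zinc finger genes named Zfp, 10 rose (2.99%) and 3 fell. Without 8HPI replicate 1, 4 rose, and 1 fell without 3HPI replicate 1, 3HPI replicate 3 or 8HPI replicate 1. Of 27 SMAD and ID genes, Smad1 rose.

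**Figure D4:**
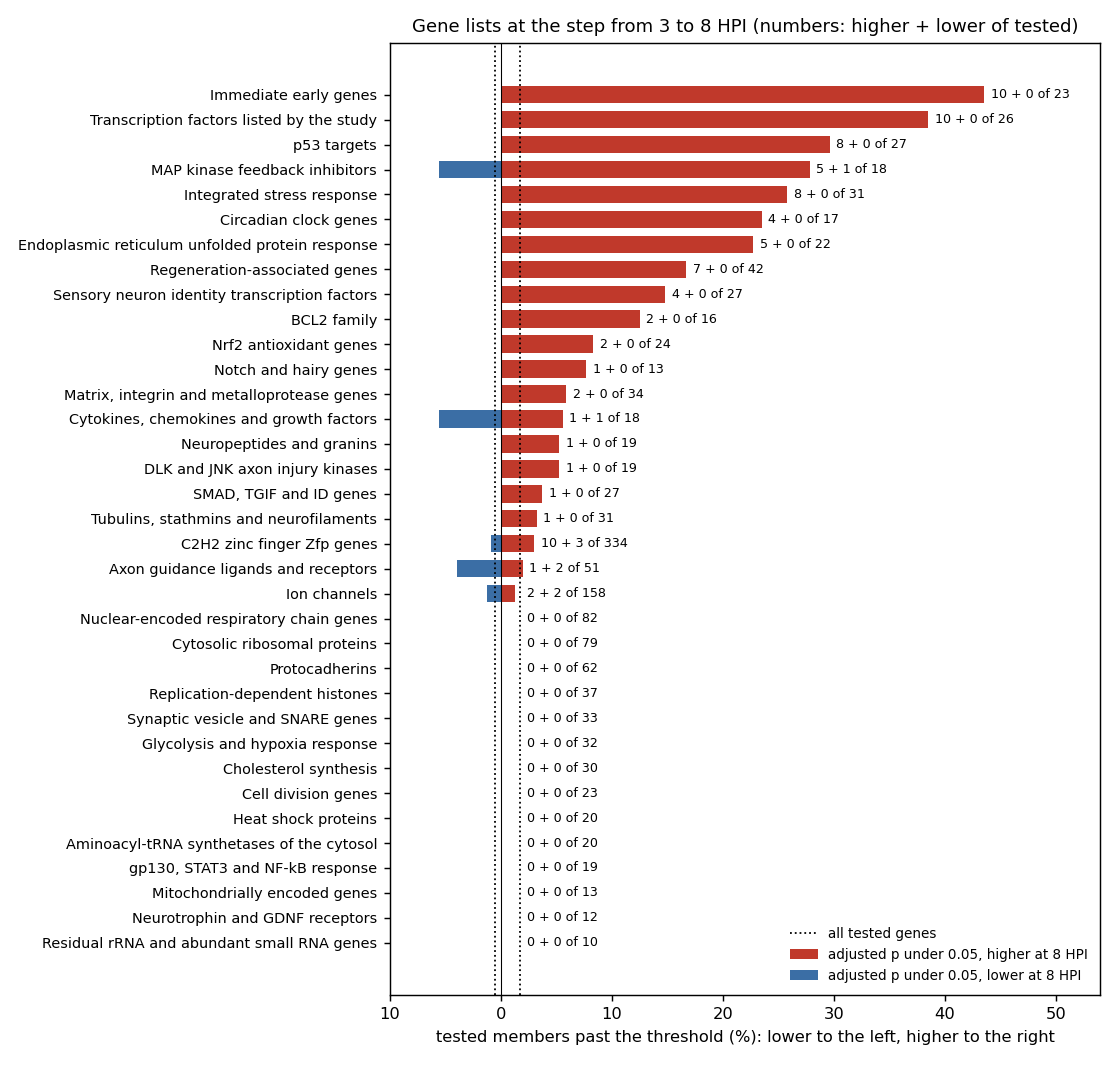
Percentage of tested members past the adjusted p threshold for each gene list, higher at 8 HPI to the right and lower to the left, with dotted lines at the shares of all tested genes, 1.74% and 0.559%. The immediate early genes reach 43.5%, and 14 lists at the bottom have 0 members past the threshold.

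The genes that fell were fewer than those that rose. Gal3st3, a sulfotransferase that acts on galactose residues, was at 1.02, 1.48 and 1.62 CPM at 3 HPI and at 0.544, 0.848 and 0.505 CPM at 8 HPI (log2 fold change -1.21, SE 0.31, edgeR adjusted p 0.0447). It rested on 19 to 34 counts at 3 HPI and 8 to 10 counts at 8 HPI, and lost its call under 12 of the 16 alternatives. Hic1, a transcriptional repressor, was at 5.98, 10.3 and 5.51 CPM and then at 2.90, 3.82 and 3.38 CPM (log2 fold change -1.03, SE 0.18, edgeR adjusted p 0.00175). The groups did not overlap for Hic1, and replicate 2 had the highest level at both times. Hic1 kept an adjusted p under the threshold in every alternative but the fit with no replicate block, while its fold change went under 2-fold in 4 others. Gal3st3 lies on chromosome 19 of GRCm38 from 5298331 to 5308738, plus strand, and Hic1 on chromosome 11 from 75164565 to 75169519, minus strand.

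Behind these came genes that fell by less than 2-fold. The neuronal transcription factor Onecut1 (log2 fold change -0.98), the chromatin reader Jade2 (-0.95), Sertad3 (-0.91), the zinc finger gene Zfp658 (-0.74), the adenylyl cyclase Adcy6 (-0.72), the G protein regulator Rgs2 (-0.70), the kinase Nim1k (-0.69), the prostaglandin E receptor Ptger4 (-0.69), the growth factor Fgf18 (-0.68) and Lrrc3b (-0.67) completed the 12. Onecut1 rested on 30 to 51 counts at 3 HPI and 6 to 30 counts at 8 HPI, and its groups overlapped. Sertad3 rested on 28 to 53 and then 11 to 23 counts (edgeR adjusted p 0.0415). Adcy6 had the smallest p of the 12, at 13.6, 14.3 and 23.5 CPM at 3 HPI and at 6.77, 9.11 and 15.3 CPM at 8 HPI (edgeR adjusted p 0.000247). Its groups overlapped, since replicate 3 was high at both times, while each batch showed the decrease, as the rule for these 12 required. Rgs2 went from 15.3, 16.4 and 15.9 CPM to 8.89, 10.5 and 10.1 CPM, with no overlap. Median GC content, taken from the longest transcript of each gene, was 55.5% for the 77 genes that fell. It was 49.1% for the 240 that rose and 49.4% for all tested genes. Median lengths over all exons of a gene were 4137, 5192.5 and 4418 bases in that order. With offsets for GC content and exon length in each library, 83 genes fell, 64 of them among the 77, and 249 rose, 225 of them among the 240.

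Of 928 tested long noncoding genes and transcripts of uncertain status, 7 rose (0.754%) and 1 fell (0.108%), and of 340 pseudogenes 0 rose and 1 fell (0.294%), against 1.74% and 0.559% of all tested genes. Called higher among them were Gm43581 (log2 fold change 1.41), 4930509H03Rik (1.24), Gm43279 (1.06) and Gm12981 (1.04), and Gm42743 followed at 0.99. The first 2 lie within Slc16a1 and Lrig2 on the same strand, with log2 fold changes of 0.31 and 0.21 for these hosts, and Gm12981 overlaps Sesn2 (0.67), so that reads of the pairs may not be told apart. Gm43581 was at 0.431, 0.436 and 0.757 CPM at 3 HPI and at 1.09, 0.848 and 2.37 CPM at 8 HPI, on 8 to 14 and 8 to 47 counts. Each of the 4 called genes lost its call without 1 or more of the 6 libraries. Trerf1, annotated as a processed transcript and counted as a gene, fell (log2 fold change -0.53, edgeR adjusted p 0.00605), and so did the pseudogene Gm15772 (-0.27, adjusted p 0.048).

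The 6 libraries held between 9478891 counts on genes (8HPI replicate 2) and 23082327 (3HPI replicate 2), so that 3 counts, taken as the limit of detection, stood for 0.13 to 0.316 CPM, a limit that covers counting error only. The share of reads outside annotated genes was 12.1% and 9.23% in the replicates 3 at 3 and 8 HPI and between 6.94% and 7.52% in the other 4. The labelled cell type was checked with sensory neuron markers, most of which were abundant. Tubb3 was at 3142, 3134 and 2677 CPM at 3 HPI and at 2831, 2887 and 2558 CPM at 8 HPI and Avil between 596 and 810 CPM over the 6. Low members of the list were the nociceptor channel Trpv1, at 0.39 to 4.12 CPM, and Th, at most 0.314 CPM and not tested. Of the 17 tested neuron markers 0 passed, with 3 lower at an unadjusted p under 0.05 and Elavl4 past the DESeq2 Wald test. The summed level of the fibroblast list was 194 to 254 CPM at 3 HPI and 160 to 271 CPM at 8 HPI, mostly from Thy1, which neurons also express. The collagens Col3a1, Col1a2 and Col1a1 were under 2.5 CPM except in 8HPI replicate 2, where they reached 9.92, 4.96 and 3.16 CPM. Postn ran from 0.78 to 5.78 CPM at 3 HPI and from 2.56 to 4.33 CPM at 8 HPI, Pdgfrb was at most 2.11 CPM and Dcn under 1 CPM in the 6 libraries. The 7 tested members had a median log2 fold change of 0.86, with 0 passing. The glial list summed to 322 to 398 CPM and 308 to 378 CPM, mainly Mbp, S100b and Pmp22, with Sox10 under 1 CPM and 0 of 12 passing. The endothelial list, of 10 genes with 1 tested, gave 23.7 to 27.3 CPM and 20 to 25.7 CPM, nearly all from Egfl7, with Tie1 at 0 in the 6 libraries. The neural crest list gave 8.51 to 13.4 CPM and 12 to 13.4 CPM, with 0 of 4 passing. The myeloid list gave 5.89 to 7.16 CPM and 7.12 to 8.65 CPM, with 0 of 3 passing and Ptprc at most 0.316 CPM. Over the 5 lists of other cells, 2 genes were higher and 2 lower at an unadjusted p under 0.05, and 0 passed the DESeq2 Wald test. The part of these cells in the changes was not tested. Of 10 residual rRNA and small RNA genes 0 passed, with 2 lower at an unadjusted p under 0.05, although Lars2 ranged from 24.7 to 1033 CPM over the 3 libraries at 3 HPI, and with that list and the mitochondrial genes left out 237 of the 240 and 77 of the 77 genes passed.

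Levels at the other times were set beside the step. The genes that rose or fell were chosen on the 3 HPI and 8 HPI libraries, so a peak or trough at either time is partly built in. Of the 240 genes that rose, 165 had their highest mean at 8 HPI, 73 had it at 16 HPI and the remaining 2 at 24 HPI. Of all 13771 tested genes, 2142 were highest at 8 HPI and 3027 at 16 HPI. The lowest mean was at 3 HPI for 85 of the 240 and for 1898 of all tested genes. Of the 77 that fell, 54 were lowest at 8 HPI, 22 were lowest at 16 HPI and 1 was lowest at 24 HPI. Of all tested genes, 2357 were lowest at 8 HPI and 3253 at 16 HPI. At 3 HPI against control, 1 of the 240, Fosl2, was already higher and 1 was lower, beside 0.0436% of all genes that were higher and 0.145% that were lower. At 8 HPI against control 188 of the 240 were higher and 57 of the 77 lower, beside 3.78% and 3.9% of all genes, and these comparisons share the libraries of 8 HPI. Of the 24 called higher, 12 had their lowest mean at 3 HPI, and 19 were higher at 8 HPI than in control. March3, Helz2, Gm43279, Gm12981 and 4930509H03Rik did not pass against control. Of the 2 called lower, Gal3st3 was lower than control at 8 HPI. Hic1 did not pass there (log2 fold change -0.50, edgeR adjusted p 0.126). From 8 to 16 HPI, 22 of the 240 rose further and 63 fell, and 28 of the 77 rose and 9 fell further, beside 7.3% and 7.88% of all genes that rose and fell. Fosl2 had means of 8.54 CPM in control and 30.8 CPM at 16 HPI.

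The leading genes differed in what came next. Atf3 went on from 64.3 ± 1.39 CPM (SD, n = 3) at 8 HPI to 118 CPM at 16 HPI (log2 fold change 0.87, edgeR adjusted p 0.00252) and stood at 30.6 CPM at 24 HPI. Dusp1 held 32.7 CPM at 16 HPI and 13.8 CPM at 24 HPI. Egr1 fell to 4.82 CPM at 16 HPI (log2 fold change -1.14, edgeR adjusted p 0.000332), as did Creb5 (-0.82), Calcrl (-0.80), Ier3 (-0.54) and Btg2 (-0.51). Jun was at 68.3 CPM at 16 HPI (-0.22, adjusted p 0.0976) and 37.5 CPM at 24 HPI, against 39.3 CPM in control. Of the genes that fell, Gal3st3, Hic1, Sertad3, Jade2 and Adcy6 rose again between 8 and 16 HPI, with log2 fold changes from 0.63 to 1.24, whereas Rgs2 and Ptger4 had values of 0.01 and -0.07. The change from 3 to 8 HPI minus that from 8 to 16 HPI passed for 125 of the 240 and 35 of the 77, beside 1.91% of all genes above 0 and 1.26% under 0. These genes were picked on the libraries of 8 HPI that enter both changes, so the counts are a description.

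**Figure D5:**
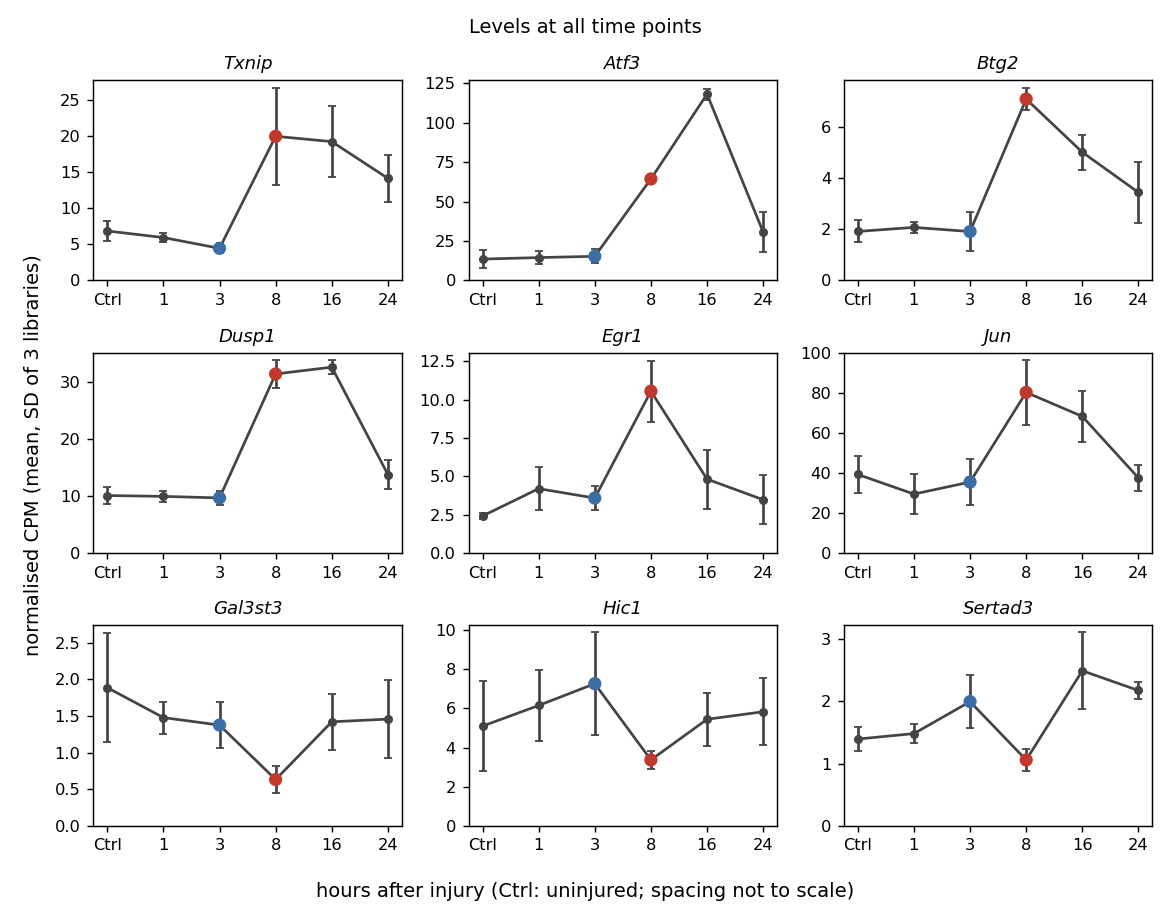
Mean normalised CPM with SD of 3 libraries (vertical axis) for 6 genes that rose and 3 that fell, at each collection (horizontal axis, not to scale), with 3 HPI in blue and 8 HPI in red. Btg2 and Egr1 have their highest mean at 8 HPI, Atf3 at 16 HPI with 118 CPM, and Hic1 and Sertad3 have their lowest mean at 8 HPI.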

How the data were processed

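RNA was extracted with a column kit, depleted of rRNA and made into cDNA with a SMARTer kit per the labels, whereas the methods of the study name a High Capacity reverse transcription kit. The authors trimmed reads with cutadapt, aligned them with STAR to mm10 and deposited the raw counts per gene of each library, with no normalisation. The study's methods name featureCounts and GENCODE vM20, while the submitters' processing notes name FastQC, STAR, HTSeq and DESeq2, and each table ends in 5 entries with htseq-count names. These 5, with 25.2% to 33.2% of all counts, were left out. Whether counting used strand is not given in the sources used here. The labels place the injury before collection without a culture day, and the study's methods place the cut at DIV7.

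Gene names, positions, exon lengths and GC content came from GENCODE vM21 on GRCm38, which matched 47224 of 47643 identifiers. The tests were run with edgeR 4.0.16 and DESeq2 1.42.0 under R 4.3.3, and summaries with Python 3.11.15. One quasi-likelihood model with time point and replicate number was fitted to all 18 libraries after TMM scaling, and p-values were two-sided and Benjamini-Hochberg adjusted over 13771 genes. Calls used the study's thresholds, 0.05 for the adjusted p and 1 for the size of the log2 fold change. CPM are TMM-normalised except for marker sums and the levels of cell type markers other than Tubb3 and Avil, which are scaled to counts on genes. In a test on simulated data, the fit recovered 191 of 200 genes that had been given a 3-fold change and made 1 false call. The simulated counts were drawn from the fitted means and spread of this same model, so good recovery was partly built in. Only calls, which need a change over 2-fold, were scored. Recovery of smaller changes and false results by the adjusted p alone were not measured. No pair of libraries held identical counts.

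The replicate numbers pair the samples: deviations from the group means correlated at 0.624, 0.51 and 0.594 in same-numbered 3 and 8 HPI libraries, and between -0.391 and -0.175 in the others. Centring on the group means makes the others negative on average where same-numbered pairs are positive, so their sign is no separate support. Genes named were, in each direction, the 12 protein-coding and 5 other genes with the largest change among called genes, filled up from those past the adjusted p. These had to move the same way in all 3 batches. Up to 4 members per list with the smallest p, and markers, were also named. Other genes were named after their values were seen, and a few members of lists are not reported here. Members and lists were chosen with earlier results of these data known. Alternatives were other scalings, the DESeq2 Wald test, other filters, no replicate block, the 6 libraries alone, thinned counts, GC and length offsets, residual rRNA and mitochondrial genes left out, and each library left out.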

Additional observations from a re-analysis of the deposited data

Results flagged for a closer look

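For 23 of the 31 genes named as the leading changes, the change from 3 to 8 HPI differed from the change from 8 to 16 HPI. The difference was tested within the same edgeR quasi-likelihood fit and passed its Benjamini-Hochberg adjusted threshold. Both changes share the libraries of 8 HPI and the genes were chosen on the first change, so an unusual level at 8 HPI would enter both with opposite sign.

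Among genes that rose first, the difference on the log2 scale was 2.6839 for Egr1, 2.4220 for Btg2, 2.1820 for Txnip, 2.0086 for Adamts1, 1.6385 for Dusp1, 1.6360 for Elmsan1, 1.5390 for Trim17, 1.3344 for Arid5a and 1.2448 for Atf3. Atf3 alone of these went on rising from 8 to 16 HPI, with a log2 fold change of 0.87 after one of 2.12. Among noncoding genes the difference was 1.9537 for Gm43279, 1.7743 for 4930509H03Rik, 1.7188 for Gm12981 and 1.1242 for Gm42743.

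Among genes that fell first, it was -2.4446 for Gal3st3, -2.1427 for Sertad3, -1.7574 for Onecut1, -1.6641 for Jade2, -1.6609 for Hic1, -1.4487 for Adcy6, -1.3861 for Zfp658, -1.3563 for Fgf18, -1.1679 for Nim1k and -0.5021 for the pseudogene Gm15772. The adjusted p of the 23 ran from 2.17e-05 for Dusp1 to 0.046 for Gm42743.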

How the results depend on the processing

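Of the 129 named genes, 75 passed the adjusted p. Under the 16 alternatives 0 of these 75 changed sign, 16 passed under every alternative that gave an adjusted p, and 48 passed without each of the 6 libraries in turn. Of the 54 others, 12 changed sign under an alternative without passing the adjusted p there. Without the replicate block, which ignores the pairing of the libraries, 11 genes were called higher and 0 lower, and 37 rose and 7 fell by the adjusted p. With counts thinned to the shallowest library 123 rose and 25 fell, and upper-quartile scaling gave 116 that fell. The 2 genes called lower became 1 by the DESeq2 Wald test, 4 with a minimum of 10 counts, 1 with over 1 CPM in all 18 libraries, 5 with the 6 libraries alone and 0 with GC and length offsets. Leaving out 1 library gave 20 to 30 genes called higher, 1 to 2 called lower, 134 to 196 that rose and 32 to 68 that fell. For the difference of the changes before and after 8 HPI, whose alternatives were chosen after seeing the data, 23 of 31 genes passed, 2 without the replicate block and 7 to 23 with 1 library left out, the lowest without 8HPI replicate 1 and 13 without 8HPI replicate 2. The causes of these shifts were not tested. The shallowest library, 8HPI replicate 2, held 9478891 counts, where 3 counts stand for 0.316 CPM.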

Other observations

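Some genes that rose are described here although they were chosen after their values were seen. Beside Txnip, which encodes an arrestin-domain protein, its relatives Arrdc4 and Arrdc2 rose. Arrdc4 was at 59.9, 62.6 and 59.0 CPM at 3 HPI and at 91.8, 84.6 and 71.0 CPM at 8 HPI (log2 fold change 0.44, edgeR adjusted p 0.000911). Arrdc2 was at 6.74, 7.54 and 7.14 CPM and then at 9.37, 10.8 and 9.24 CPM (log2 fold change 0.45, edgeR adjusted p 0.0219). In both genes the groups did not overlap.

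Single genes that also rose, taken from no list and with no count of related genes, were the following. Aff1, a scaffold of the super elongation complex, went from 24.1, 28.8 and 31.8 CPM to 37.9, 45.7 and 50.5 CPM (log2 fold change 0.66, edgeR adjusted p 0.000518). The log2 fold changes were 0.19 for its relative Aff4, 0.21 for the bromodomain gene Brd2 and 0.24 for the termination factor Pcf11 (edgeR adjusted p 0.0498, 0.0133 and 0.0164). The transcription factors Foxo3 and Klf9 had log2 fold changes of 0.36 and 0.31 (edgeR adjusted p 0.00193 and 0.00264).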
